A study of Mus musculus with 53 samples.

Results

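The genes of the adrenergic receptors, through which noradrenaline and adrenaline act on cells, were followed in 4 regions of the brain in a mouse model of spinocerebellar ataxia type 3 (SCA3). They were taken as all rows of the count table whose symbol is Adra or Adrb followed by a digit. This gave 6 of 12372 genes: the α1 receptor genes Adra1a, Adra1b and Adra1d, the α2 receptor genes Adra2a and Adra2c, and the β1 receptor gene Adrb1. SCA3 mice were MJD84.2 mice, which are hemizygous for full-length human ATXN3 whose CAG repeat is expanded, and which express it ubiquitously from the human ATXN3 promoter beside the mouse Atxn3. Controls were wild-type C57BL/6 mice. All were untreated males of 74 to 77 weeks that had been through motor tests earlier in life. The 53 libraries came from 14 mice, 1 library per mouse and region, and covered brainstem (8 wild-type, 6 SCA3), cerebellum (7 and 6), cortex (7 and 6) and striatum (8 and 5). Each is named here by region, genotype and mouse number.

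Noradrenaline reaches nearly the whole brain from a few small brainstem nuclei, chiefly the locus coeruleus, and sets arousal, attention and motor tone. Its receptors couple to 3 kinds of G protein. The α1 receptors act through Gq and phospholipase C, which release calcium and activate protein kinase C. The α2 receptors act through Gi/o, which inhibits adenylyl cyclase, and they also sit on noradrenergic terminals as autoreceptors. The β receptors act through Gs, which activates adenylyl cyclase and, through cAMP and protein kinase A, the transcription factor CREB. In striatal projection neurons a related G protein, Golf (Gnal), couples receptors to adenylyl cyclase 5.

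All libraries were deep, with 31.7 to 76.7 M counts, and the lowest count of a receptor in any library was 30. Over the 53 libraries Adra1a varied least, 2.52-fold between 6.69 and 16.9 CPM (counts scaled to TMM-adjusted library totals). Adra1d varied most, 87.5-fold between 0.532 and 46.5 CPM. Tissue content differed between libraries carrying the same region label. In striatum, the 9 measured of 12 listed thalamus marker genes summed to between 111 and 2270 CPM in wild-type libraries and between 110 and 311 CPM in SCA3 libraries, and none of the 9 was at 0 in any library. Markers of striatal projection neurons (10 of 10 measured) summed to between 2120 and 9240 CPM in wild-type and between 5660 and 8370 CPM in SCA3. In cortex, markers of cortical glutamatergic neurons (5 of 8 measured) ranged from 501 to 1940 CPM in wild-type and from 509 to 2040 CPM in SCA3. Values of these markers are given beside the receptors that moved with them.

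Adra1b lies at chr11:43774605-43901250 on the minus strand and Adra2a at chr19:54045259-54048982 on the plus strand of GRCm38. Adra1a was located at chr14:66635251-66771240, Adra1d at chr2:131545357-131562497, Adra2c at chr5:35278566-35281763 and Adrb1 at chr19:56722117-56725150. Of the exons of Adra1d, 147 bases overlap exons of Gm14285 on the opposite strand. Since the libraries kept no strand information, reads there cannot be assigned to either gene, and the values of Adra1d are uncertain to that extent. Promoter windows could be matched for 4 of the 6 genes, with 5 windows in all, and those of the genes called between genotypes follow here. Each is the 250 bases before an annotated start in RefSeq on GRCm38.p6, read in the direction of the gene, and capitals mark TGACG, the core of the cAMP response element bound by CREB.
Adra1b, chr11:43901238-43901487, minus strand: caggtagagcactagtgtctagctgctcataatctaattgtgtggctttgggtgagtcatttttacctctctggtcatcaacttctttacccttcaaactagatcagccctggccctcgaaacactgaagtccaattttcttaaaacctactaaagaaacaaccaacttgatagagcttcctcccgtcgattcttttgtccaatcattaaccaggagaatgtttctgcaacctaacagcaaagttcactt
Adra1b, second start, chr11:43836490-43836739, minus strand: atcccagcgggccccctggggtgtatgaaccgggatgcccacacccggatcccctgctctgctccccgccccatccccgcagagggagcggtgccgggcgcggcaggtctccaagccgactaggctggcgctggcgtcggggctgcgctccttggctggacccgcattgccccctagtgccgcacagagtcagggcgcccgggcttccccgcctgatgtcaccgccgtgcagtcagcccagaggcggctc
Adra2a, chr19:54045009-54045258, plus strand: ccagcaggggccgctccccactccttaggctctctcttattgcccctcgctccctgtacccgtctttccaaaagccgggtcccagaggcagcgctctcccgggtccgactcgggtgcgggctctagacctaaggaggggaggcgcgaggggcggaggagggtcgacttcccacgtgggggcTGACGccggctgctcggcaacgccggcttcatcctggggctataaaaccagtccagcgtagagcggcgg
The full element TGACGTCA was searched on both strands and found in none of the 5 windows, and 1.55% of 32851 RefSeq promoter windows of the same length hold it. This core, which is contained in the full element, occurs once in Adra2a, 69 bases before the start, and once in Adrb1, 90 bases before it. It occurs in 17.8% of all windows. Adra2a also holds a TATA box (TATAAA), as do 12.4% of windows. The windows of Adra1b and Adra2c held none of these letters. The first window of Adra1b had a GC content of 41.6% and 3 CpG, and its second 72.8% and 22 CpG, near the 67.6% and 22 CpG of Adra2a.

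The first question was where in the brain each receptor gene is expressed. Levels were compared between wild-type regions in 6 pairs of regions for each gene, 36 comparisons in all, with the edgeR likelihood ratio test and Benjamini-Hochberg adjustment over all genes. Of these, 22 were called at a false discovery rate (FDR) below 0.05. By pair of regions, 4 of 6 receptors differed between brainstem and cerebellum, where 72.6% of all genes were called, and 4 of 6 between brainstem and cortex (65.4% of all genes). Brainstem and striatum differed in 3 of 6 (64.2%), cerebellum and cortex in 5 of 6 (69.7%), cerebellum and striatum in 4 of 6 (69.5%), and cortex and striatum in 2 of 6 (34.4%). These shares lie near those of all genes. Adra2a was highest in brainstem, Adra1d in cortex, Adrb1 in cortex followed by striatum, and Adra2c in striatum and cortex, whereas cerebellum was lowest or among the lowest for each gene.

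**Figure D1:**
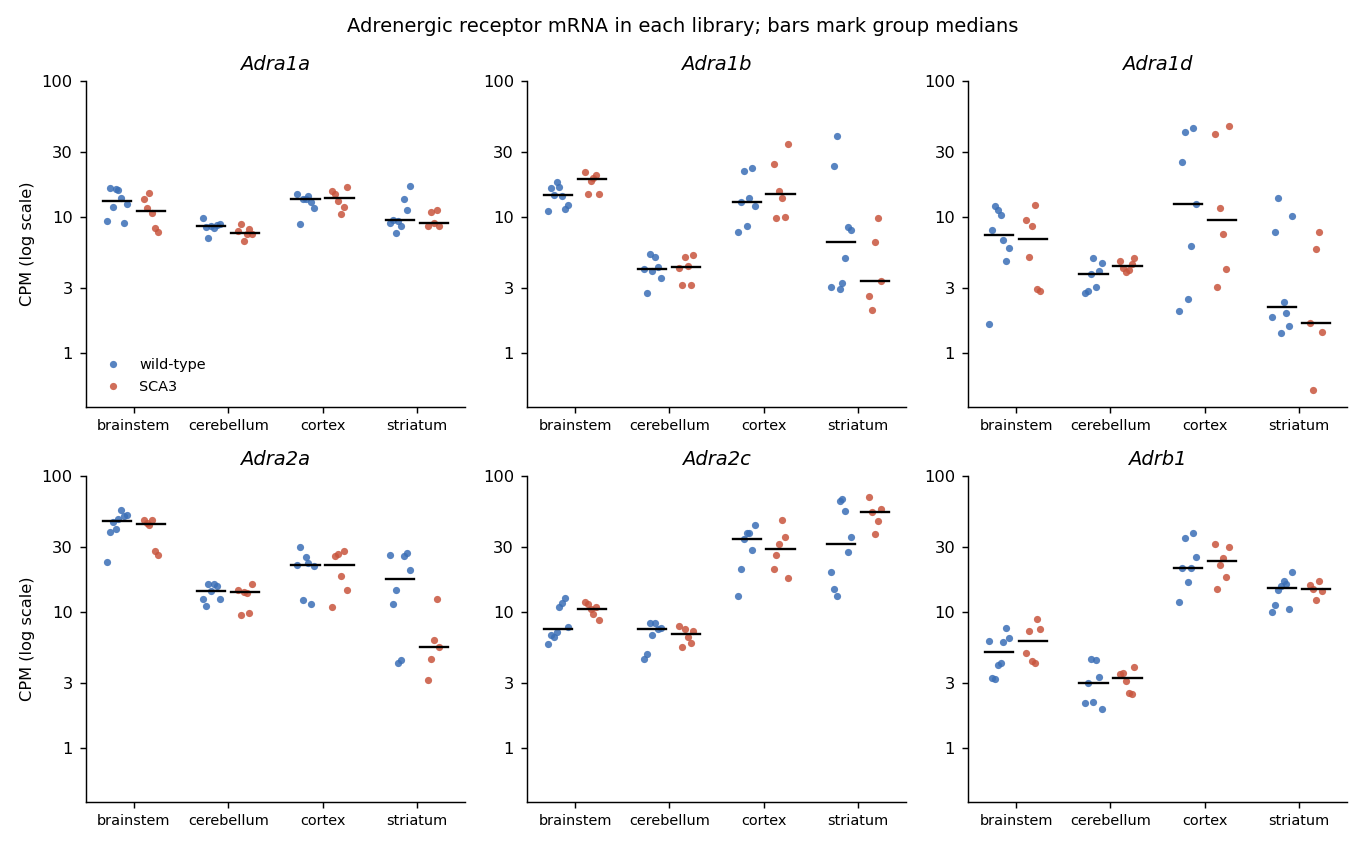
CPM of the 6 receptor genes on a log axis, with 1 point per library, wild-type in blue and SCA3 in red, by region, and a bar at each group median. Adra2a lay between 23.4 and 56.8 CPM in wild-type brainstem, and Adra1d in wild-type cortex ran from 2.02 to 44.8 CPM.

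Among the α1 receptors, Adra1a was the most even. Wild-type means were 13.0 ± 2.95 CPM in brainstem (SD, n = 8), 12.7 ± 2.01 in cortex (n = 7), 10.7 ± 3.09 in striatum (n = 8) and 8.51 ± 0.825 in cerebellum (n = 7). The cerebellum was lower than brainstem (log2 difference brainstem over cerebellum 0.61 ± 0.15 SE, FDR = 7.4e-05), cortex (cerebellum over cortex -0.58 ± 0.15, FDR = 0.00027) and striatum (cerebellum over striatum -0.33 ± 0.15, FDR = 0.036). Brainstem, cortex and striatum did not pass the test against each other (FDR between 0.073 and 0.87), and their order is not resolved. Without wild-type mouse 9083373 (0.35, FDR = 0.038) or 9083375 (0.41, FDR = 0.0093) brainstem was called above striatum, and without 9083375 cortex was too (0.40, FDR = 0.03). The difference between cerebellum and striatum lost its call without any of the wild-type mice 9082857, 9083372, 9083373 and 9083375, with FDR from 0.053 to 0.19, with limma-voom (FDR = 0.062) and in the wild-type libraries alone, both with no block (-0.33, FDR = 0.051) and with the mouse as a replicate block (-0.32, FDR = 0.082).

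Adra1b was lowest in cerebellum, at 4.14 ± 0.875 CPM (SD, n = 7). It reached 14.3 ± 2.54 CPM in brainstem (n = 8), 14.2 ± 5.99 in cortex (n = 7) and 11.8 ± 13.2 in striatum (n = 8), and these 3 were not separated (FDR between 0.50 and 0.99). Cerebellum differed from brainstem by 1.78 ± 0.37 on the log2 scale (FDR = 1e-05). The striatal mean rested on 2 wild-type libraries, mouse 7267059 at 39.7 CPM and mouse 7267058 at 23.7 CPM, while the other 6 lay between 2.92 and 8.41 CPM. Without the 5 libraries whose mean thalamus marker level lay more than 1 log2 unit above their region's mean, which include those 2, Adra1b was lower in striatum than in brainstem (brainstem over striatum 1.53, FDR = 2.6e-06) and cortex (cortex over striatum 1.48, FDR = 2.9e-05), and its difference between cerebellum and striatum lost the call (-0.30, FDR = 0.37). Limma-voom with the mouse as a replicate block gave the same 3 changes of call, with 0.95 (FDR = 0.0075), 0.94 (FDR = 0.021) and -0.79 (FDR = 0.074).

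Adra1d was highest in cortex and most variable there. Its wild-type cortical libraries lay at 2.02, 2.48, 6.13, 12.4, 25.4, 41.9 and 44.8 CPM, and the SCA3 ones at 3.02, 4.13, 7.43, 11.6, 40.4 and 46.5 CPM. The genotypes overlapped over most of the range. Mean wild-type levels were 19.3 ± 18.3 CPM in cortex (SD, n = 7), 7.58 ± 3.56 in brainstem (n = 8), 5.08 ± 4.78 in striatum (n = 8) and 3.71 ± 0.87 in cerebellum (n = 7). Cortex exceeded brainstem (brainstem over cortex -1.35 ± 0.56 on the log2 scale, FDR = 0.026), cerebellum (cerebellum over cortex -2.38 ± 0.58, FDR = 0.00018) and striatum (cortex over striatum 1.93 ± 0.56, FDR = 0.0038). The other 3 regions did not differ from each other beyond their spread (FDR between 0.092 and 0.48). The call against brainstem was lost without wild-type mouse 7267058, 9082857 or 9083373 (FDR 0.059 to 0.17). It was also lost with limma-voom, with no block (-0.84, FDR = 0.22) and with the mouse as a random replicate block (-0.86, FDR = 0.18). That against striatum was lost without 9082857 (FDR = 0.055) or 9083373 (FDR = 0.057).

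Of the α2 receptors, Adra2a, the main autoreceptor of noradrenergic neurons, was highest in brainstem. There it averaged 44.7 ± 10.4 CPM in wild-type (SD, n = 8), against 20.9 ± 6.83 in cortex (n = 7), 16.8 ± 9.56 in striatum (n = 8) and 14.0 ± 2.01 in cerebellum (n = 7). Brainstem exceeded cortex by 1.09 ± 0.29 on the log2 scale (FDR = 4e-04), striatum by 1.41 ± 0.28 (FDR = 2e-06) and cerebellum by 1.67 ± 0.29 (FDR = 4.8e-08). The remaining pairs were not separated (FDR between 0.07 and 0.42), except that cerebellum and cortex differed without wild-type mouse 9082857 (FDR = 0.024) or 9083373 (FDR = 0.037). Within brainstem, 3 libraries fell well below the rest, wild-type mouse 7267055 at 23.4 CPM and SCA3 mice 9083514 and 9083515 at 28.0 and 26.2 CPM, whereas the other 11 lay between 38.8 and 56.8 CPM. The same 3 libraries carried 121, 141 and 162 CPM of Tcf7l2, a thalamic transcription factor, and had the lowest Adra1d of the region (1.62, 2.94 and 2.86 CPM). High Tcf7l2 alone did not always go with low Adra2a. Wild-type mouse 9083373 had 158 CPM of Tcf7l2 beside 51.3 CPM of Adra2a, and SCA3 mouse 7267056 had 92.3 beside 45.2. The mean level of the whole thalamus list, in log2 units from the region's mean, was 1.06 to 1.2 in the 3 low libraries. It was 0.26 in mouse 9083373 and 0.04 in mouse 7267056. The part of tissue content in these values was not tested.

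Adra2c, the second α2 receptor and one known for its striatal expression, was highest in striatum and cortex. It averaged 37.6 ± 22.7 CPM in wild-type striatum (SD, n = 8) and 30.9 ± 10.8 in cortex (n = 7), which did not differ (cortex over striatum -0.28 ± 0.26, FDR = 0.42). Brainstem (8.65 ± 2.63 CPM, n = 8) and cerebellum (6.85 ± 1.55, n = 7) were not separated either (0.34 ± 0.26, FDR = 0.24). Each of the first pair exceeded each of the second. The largest of these differences was that of cerebellum over striatum (-2.46 ± 0.26 on the log2 scale, FDR = 1e-17), with a 5.5-fold higher level in striatum (95% interval 3.8 to 7.8). The smallest was that of brainstem over cortex (-1.84 ± 0.26, FDR = 3.1e-11). Markers of striatal projection neurons also varied between wild-type cortical libraries, with sums of 635 to 3080 CPM. Cortical Adra2c was lowest in wild-type mice 7267055 and 7267058 (13.1 and 20.9 CPM), beside 115 and 79.8 CPM of Ppp1r1b, among these markers. It was highest in wild-type mouse 9083375 (43.5 CPM), beside 422 CPM. The part of striatal content in the cortical level was not tested.

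The β1 receptor gene Adrb1 was the one receptor whose 4 regions all differed from each other. It averaged 24.2 ± 9.59 CPM in cortex (SD, n = 7), 14.3 ± 3.38 in striatum (n = 8), 5.11 ± 1.64 in brainstem (n = 8) and 3.06 ± 1.06 in cerebellum (n = 7). Cortex over striatum was 0.76 ± 0.22 on the log2 scale (FDR = 0.0025), brainstem over striatum -1.48 ± 0.21 (FDR = 3.8e-11), and brainstem over cerebellum 0.74 ± 0.22 (FDR = 0.0016). Cortex held 7.9-fold the level of cerebellum (95% interval 5.8 to 10.7, FDR = 1.4e-33).

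To compare the genes with each other, CPM was divided by exonic length in kilobases, taken from GENCODE transcripts linked to RefSeq mRNAs. In brainstem, Adra2a led with 12.4 ± 2.89 CPM per kilobase (SD, n = 8), 7.17-fold above Adrb1 at 1.73 ± 0.555. In cerebellum Adra2a led again, at 3.90 ± 0.56 (n = 7), with Adrb1 lowest at 1.04 ± 0.36. In cortex the highest were Adra1d (10.2 ± 9.61), Adra2c (8.98 ± 3.13) and Adrb1 (8.20 ± 3.25), which lay within each other's spread. In striatum Adra2c was highest at 10.9 ± 6.58, with Adrb1 at 4.84 ± 1.14 and Adra2a at 4.68 ± 2.66 next. Adra1a was the lowest in cortex (2.62 ± 0.412) and striatum (2.20 ± 0.634). When the exons of all GENCODE transcripts were used, which lengthens Adra1a from 4871 to 8728 bases and Adra2a from 3592 to 4832 bases, the leading gene of each region stayed first, Adra1a became the lowest also in brainstem (1.49 CPM per kilobase), and Adra2a moved below Adra1b in striatum, both at 3.48.

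**Figure D2:**
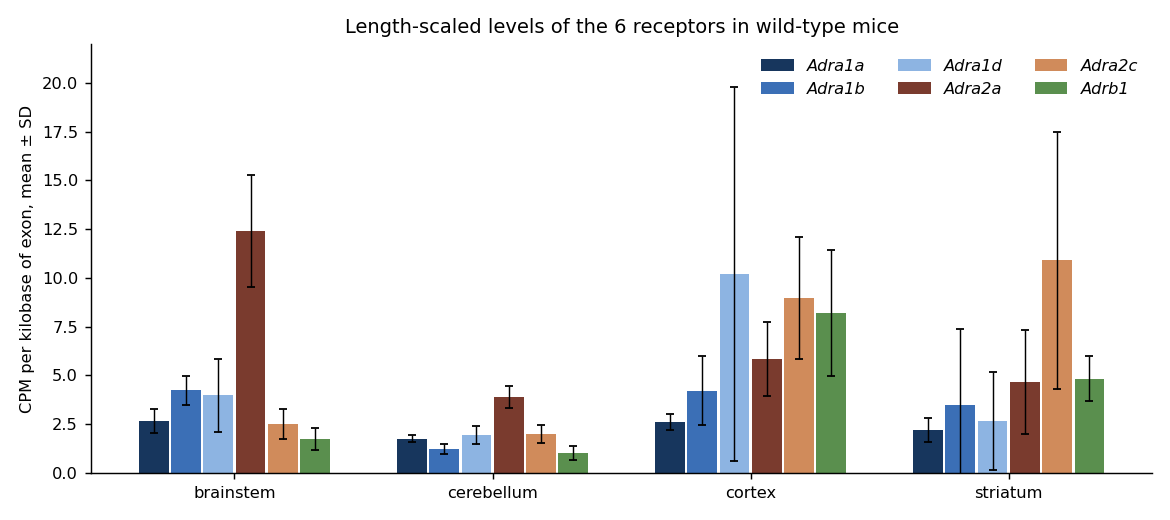
Mean CPM per kilobase of exon of the 6 receptor genes in wild-type mice by region, with error bars of 1 SD over 7 or 8 mice (the lower end for Adra1b in striatum is cut at 0). Adra2a stands out in brainstem at 12.4, Adra2c in striatum at 10.9, and 3 genes share the top in cortex.

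The second question was whether SCA3 mice differ from wild-type mice in these genes. Striatum was the only region with calls, and both were lower in SCA3: Adra2a (log2 fold change -1.39 ± 0.32 SE, FDR = 0.0024) and Adra1b (-1.27 ± 0.41, FDR = 0.045). Thus 2 of 6 receptors were called in striatum, where 7.54% of all genes were, 677 of them lower and 256 higher. In brainstem (1.92% of all genes called), cerebellum (0.0647%) and cortex (0.154%), 0 of 6 were called by the edgeR likelihood ratio test and 0 of 6 had an unadjusted p below 0.05, beside 13.3%, 1.66% and 4.07% of all genes, and DESeq2 and limma-voom also called 0 there. Median fold changes of the 6 were 0.06 in brainstem, -0.001 in cerebellum, -0.02 in cortex and -0.36 in striatum, beside medians over all genes between -0.004 and 0.003. In none of the 24 comparisons of a gene in a region did the SCA3 and wild-type libraries separate without overlap. Over all genes such separation was also rare, with 1.38% in brainstem, 0.234% in cerebellum, 0.251% in cortex and 0.655% in striatum. In bulk tissue, fewer cells of a type and less RNA per cell cannot be told apart.

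**Figure D3:**
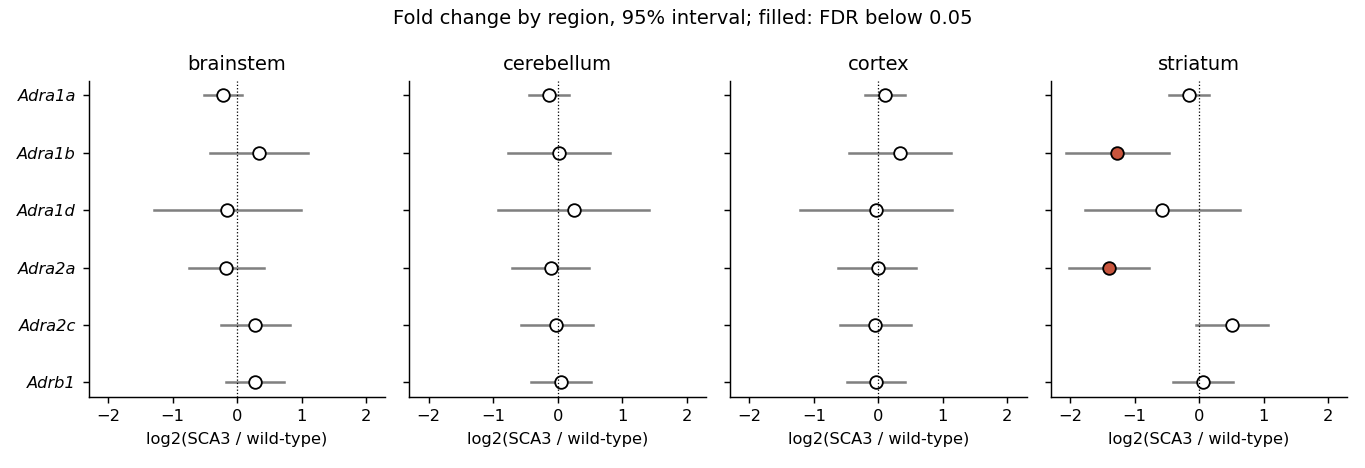
Log2 fold change of SCA3 over wild-type for each receptor in each region, with 95% intervals from the edgeR fit of all 53 libraries, filled where the FDR is below 0.05. Only Adra1b and Adra2a in striatum are filled, at -1.27 and -1.39.

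In the striatum of SCA3 mice, Adra2a measured 3.17, 4.50, 5.51, 6.22 and 12.6 CPM. The 8 wild-type libraries had 4.22, 4.45, 11.4, 14.5, 20.5, 25.7, 26.4 and 27.3 CPM, so that 5 of 8 lay above the highest SCA3 library and 3 within the SCA3 range. Means were 6.39 ± 3.64 CPM for SCA3 (SD, n = 5) and 16.8 ± 9.56 for wild-type (n = 8), a fold of 2.6 (95% interval 1.7 to 4.0). The call was kept without each of the 14 mice in turn, with fold changes from -1.79 to -1.22 and FDR from 8.8e-05 to 0.029. It was not kept with limma-voom (-1.22, FDR = 0.071), with the mouse as a replicate block (-1.20, FDR = 0.083), or when the 13 striatal libraries were fitted alone (-1.39, FDR = 0.16). Within the largest series of mouse numbers (7 of the 14 mice share their leading digits) it was -1.11 (FDR = 0.43), and with RIN of at least 7 it was -1.16 (FDR = 0.07).

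Markers of tissue content also differed between striatal libraries. The 4 wild-type libraries at 20.5 to 27.3 CPM had between 72.4 and 180 CPM of Prkcd, a protein kinase C gene strong in thalamus, and between 397 and 814 CPM of Ppp1r1b, the DARPP-32 gene of striatal projection neurons. Other thalamus markers did not all follow Prkcd. In 3 of these 4 libraries (mice 7267055, 9083372 and 9083375) Tcf7l2 lay between 6.71 and 8.99 CPM and Synpo2 between 12.6 and 16.7 CPM, and the thalamus marker score, the mean centred log2 CPM of the list, was -0.44 to -0.34, below the mean of the region. The 2 wild-type libraries at 4.22 and 4.45 CPM (mice 9082857 and 9083371) had 19.9 and 15.1 CPM of Prkcd and 1250 and 1260 CPM of Ppp1r1b, with 6.27 and 6.70 CPM of Tcf7l2, 22.9 and 22.2 of Synpo2 and scores of -1.10 and -0.88. In SCA3 libraries Prkcd lay between 16.1 and 23.2 CPM and Ppp1r1b between 714 and 1200 CPM. Levels of these markers and of Adra2a did not run together in every library. The libraries of wild-type mice 7267058 and 7267059 had the highest Prkcd (294 and 861 CPM) and the lowest Ppp1r1b (367 and 252 CPM). Their Adra2a was only 11.4 and 14.5 CPM. That of SCA3 mouse 9083514 had 12.6 CPM of Adra2a beside 17.4 of Prkcd and 792 of Ppp1r1b. It also had 40.8 CPM of Neurod6 and 617 of Slc17a7, markers of cortical glutamatergic neurons. The other SCA3 striatal libraries had 0.248 to 15 and 3.72 to 167 CPM of these. Wild-type mouse 9083375, with 20.5 CPM of Adra2a, had 49 and 598. Wild-type mice 7267055, 9083372 and 9083373, with 25.7 to 27.3 CPM of Adra2a, had 0.249 to 4.48 CPM of Neurod6. The part of cortical content was not tested. All 9 measured thalamus markers were lower in SCA3 striatum, 6 of them called, and none of the 10 projection neuron markers was lower or called. Over all genes, 5.47% were called lower in striatum. Of the oligodendrocyte markers, 8 of 8 were lower and 4 called, with sums of 6490 to 18900 CPM in wild-type and 5940 to 9030 in SCA3. Of the astrocyte markers, 9 of 10 were lower and 4 called (4870 to 7130 against 4900 to 5490 CPM), and of the microglia markers, 6 of 6 were lower and 0 called (228 to 362 against 255 to 304 CPM). Of the brainstem neuron markers, 2 of 2 measured were lower and 0 called (18.5 to 36 against 10.9 to 17.1 CPM). Of the cerebellar granule cell markers, 2 of 3 measured were lower and 1 called (17.6 to 211 against 15.7 to 55.3 CPM). No gene of the remaining marker lists was called in striatum. The part of glial, brainstem or cerebellar content in the calls of Adra2a, Adra1b and the pathway genes of striatum was not tested. Leaving out the 5 libraries of high thalamus marker level, of which 2 are wild-type striatum and 3 brainstem, left the fold change at -1.50 (FDR = 0.0027). With the thalamus marker score as a covariate in the striatal libraries alone it was -1.38 (FDR = 0.24), and with the projection neuron marker score -0.67 (FDR = 1). The part of projection neuron content in the difference was not tested beyond this fit.

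Striatal Adra1b measured 2.08, 2.63, 3.37, 6.57 and 9.74 CPM in SCA3, and 2.92, 3.06, 3.27, 4.97, 8.05, 8.41, 23.7 and 39.7 CPM in wild-type. Apart from the last 2, each wild-type value lay within the SCA3 range. Means were 4.88 ± 3.23 CPM (SD, n = 5) and 11.8 ± 13.2 CPM (n = 8), with medians of 3.36 and 6.51. The high libraries, from mice 7267058 and 7267059, held 105 and 119 CPM of Tcf7l2 and 294 and 861 CPM of Prkcd, where no other striatal library exceeded 33.2 CPM of Tcf7l2. Without the 5 libraries of high thalamus marker level, which include both, the fold change was -0.07 (FDR = 0.95). The call was lost without 7267059 alone (-0.67, FDR = 0.34) or 7267058 alone (-1.04, FDR = 0.15), and the fold change turned positive with the thalamus marker score as a covariate (0.14, FDR = 0.94), with the projection neuron score (0.22, FDR = 1) and within the largest number series (0.09, FDR = 0.98). Leaving out wild-type mouse 9083373 (FDR = 0.061) or SCA3 mouse 7267054 (0.17), 7267056 (0.19), 9083513 (0.056) or 9083515 (0.15) also ended the call, as did the quasi-likelihood test (FDR = 0.065), limma-voom (-0.84, FDR = 0.26) and the replicate block (-0.84, FDR = 0.27).

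The other receptors of the striatum did not pass the test. Adra2c measured 37.5, 47.0, 54.6, 57.4 and 70.7 CPM in SCA3 and from 13.0 over a median of 31.9 to 68.4 CPM in wild-type, a difference of 0.51 ± 0.29 on the log2 scale (95% interval -0.05 to 1.07, FDR = 0.27). Of the 8 wild-type libraries, 5 lay below the lowest SCA3 library. Its level tended to be higher where Ppp1r1b was higher, in both genotypes: 13.0 CPM stood beside 252 CPM of Ppp1r1b, 35.9 beside 623, and 68.4 beside 1260. The mean of Adrb1 was 14.9 ± 1.77 CPM in SCA3 (SD, n = 5) against 14.3 ± 3.38 for wild-type (n = 8), with a 95% interval of the log2 difference from -0.41 to 0.52. Adra1a (-0.15, interval -0.47 to 0.16) and Adra1d (-0.57, interval -1.77 to 0.64) were not called.

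**Figure D4:**
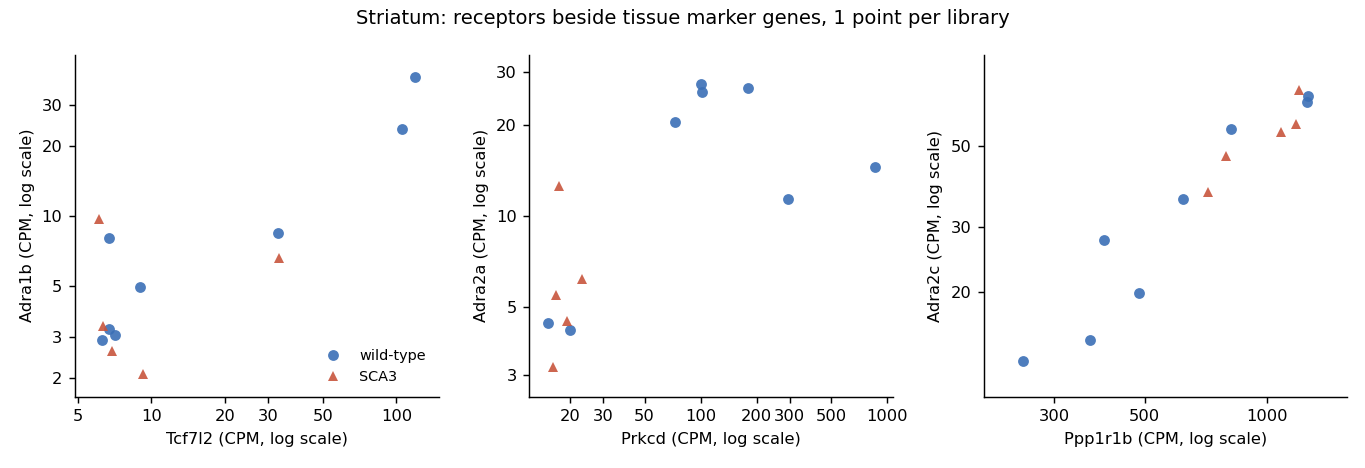
Striatal libraries, 1 point each on log axes of CPM, wild-type as blue circles and SCA3 as red triangles, with Adra1b against Tcf7l2, Adra2a against Prkcd and Adra2c against Ppp1r1b. The 2 libraries with over 100 CPM of Tcf7l2 have the highest Adra1b, the 4 highest Adra2a values stand at 72.4 to 180 CPM of Prkcd (3 of them at 6.71 to 8.99 CPM of Tcf7l2, another thalamus marker), and Adra2c runs from 13.0 CPM at 252 CPM of Ppp1r1b to 68.4 CPM at 1260.

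In brainstem, Adra1b had the largest fold change of the 6 receptors. SCA3 libraries measured from 14.7 over a median of 18.9 to 21.4 CPM (n = 6) and wild-type libraries from 11.1 over 14.4 to 17.9 CPM (n = 8), 5 of the latter lying below every SCA3 value. The log2 fold change of 0.34 ± 0.39 was not called (FDR = 0.77). It was called in the brainstem libraries alone when the thalamus marker score (0.41, FDR = 0.017) or the projection neuron score (0.42, FDR = 0.01) was a covariate, but not in those libraries without a covariate (0.34, FDR = 0.15). Adra2a, the receptor highest in this region, was 39.8 ± 9.98 CPM for SCA3 (SD, n = 6) against 44.7 ± 10.4 in wild-type (n = 8), a log2 difference of -0.17 (95% interval -0.75 to 0.42). Without the libraries of high thalamus marker level, 1 wild-type and 2 SCA3 in this region, it was -0.05. The remaining 4 receptors differed by -0.22 to 0.28 on the log2 scale, with FDR of 0.55 or more. Of these, Adra2c (0.28, FDR = 0.71) also had 5 of 8 wild-type libraries below every SCA3 value.

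In cerebellum and cortex the fold changes of the 6 genes lay between -0.14 and 0.34. Intervals were narrowest for Adra1a, from -0.45 to 0.17 in cerebellum and from -0.21 to 0.41 in cortex. They were widest for Adra1d, from -0.93 to 1.42 and from -1.21 to 1.14, so this fit could not detect a change of up to about that size. The fit shares the spread of a gene over regions, and the SE was 0.6 in either region. Cerebellar Adra1d itself varied little (wild-type 3.71 ± 0.87 CPM, SCA3 4.4 ± 0.41) beside cortex (19.3 ± 18.3 and 18.8 ± 19.4). Its cerebellar interval therefore does not reflect the spread in cerebellum alone. In cerebellum Adra2a measured 13.0 ± 2.68 CPM in SCA3 (SD, n = 6) against 14.0 ± 2.01 for wild-type (n = 7).

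Cortical libraries of both genotypes differed widely among themselves. Adra1d was highest in SCA3 mice 9083515 (46.5 CPM) and 7267054 (40.4) and wild-type mice 9083373 (44.8), 9082857 (41.9) and 7267058 (25.4), and these 5 libraries carried 79.7 to 88.5 CPM of Neurod6, a transcription factor of cortical glutamatergic neurons. In the other 8, Adra1d lay between 2.02 and 12.4 CPM and Neurod6 between 5.70 and 43.6 CPM. The library of wild-type mouse 9083373, for example, had 23.1 CPM of Adra1b, 38.3 of Adrb1 and 11.5 of Adra2a, whereas that of wild-type mouse 9083371 had 8.62, 16.6 and 25.5 CPM. In 4 of the 5 libraries, those of SCA3 mice 9083515 and 7267054 and of wild-type mice 9083373 and 9082857, Adra1b (21.7 to 34.5 CPM), Adra1d and Adrb1 (30.1 to 38.3 CPM) were above and Adra2a (10.9 to 14.6 CPM) was below every other cortical library. That of wild-type mouse 7267058, with 25.4 CPM of Adra1d, had 12.9 CPM of Adra1b, 20.9 of Adrb1 and 30.4 of Adra2a. The part of the dissected area in these values was not tested.

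**Figure D5:**
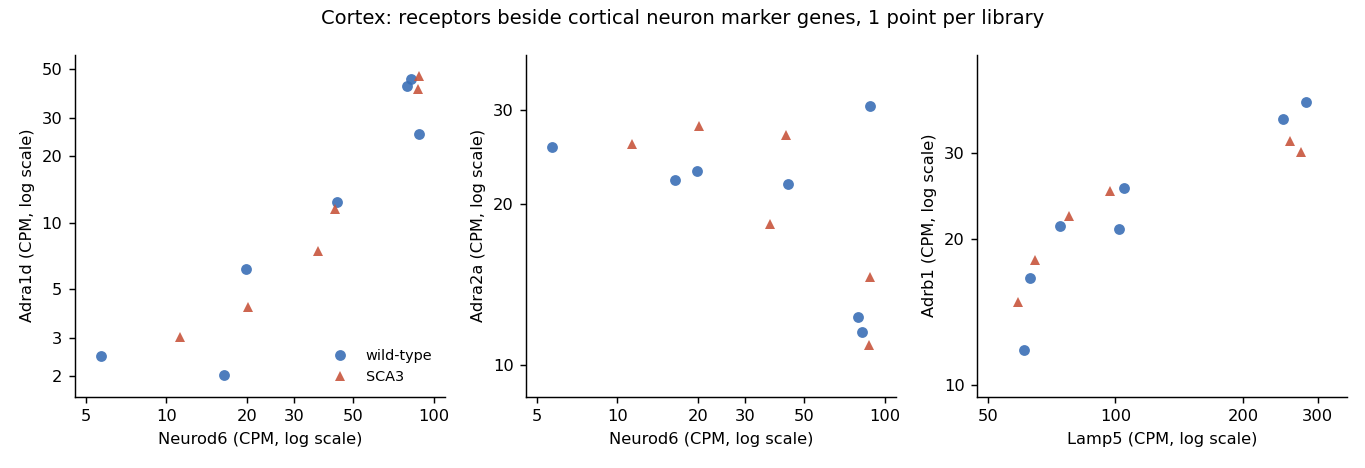
Cortical libraries, 1 point each on log axes of CPM, wild-type as blue circles and SCA3 as red triangles, with Adra1d and Adra2a against Neurod6 and Adrb1 against Lamp5, another cortical neuron marker. The 5 libraries with 79.7 to 88.5 CPM of Neurod6 have the highest Adra1d, and 4 of them the lowest Adra2a, in both genotypes.

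Further tests took the regions together, namely a combined test of genotype and its interactions with region, and a test of those interactions alone. The combined test can pass where a single region differs, and it names no region. The combined test called 1 of 6 receptors, Adra2a (FDR = 0.032), where it called 4.73% of all genes, and Adra1b had an FDR of 0.26. The fold changes of Adra2a were -1.39 in striatum, -0.17 in brainstem, -0.11 in cerebellum and -0.01 in cortex. The call of Adra2a was lost with the quasi-likelihood test (FDR = 0.086), limma-voom (0.37) and the mouse as a replicate block (0.44), and without any of 8 mice: wild-type 7267055, 9083372, 9083373 and 9083375 and SCA3 7267054, 7267056, 9082853 and 9083515, with FDR from 0.068 to 0.19. Region dependence was called for 0 of 6 (0.218% of all genes). The quasi-likelihood test, DESeq2 and limma-voom also called 0. In the edgeR likelihood ratio test 2 of 6 had an unadjusted p below 0.05, Adra2a (FDR = 0.25) and Adra1b (FDR = 0.39), beside 9.09% of all genes. Without wild-type mouse 9082857 the FDR of Adra2a was 0.047. A difference in the genotype effect between striatum and the other regions was thus not shown for any receptor.

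The pathway around the receptors was followed with a list of 60 genes, of which 55 were measured. It covered noradrenaline synthesis and breakdown, the Gq, Gi/o and Gs arms and receptor desensitisation. In striatum 9 of 55 (16.4%) were called, all lower in SCA3, beside 7.54% of all genes. Most calls over all genes were also lower there, 677 against 256 higher (5.47% of all genes lower). Leaving out single mice gave 6 to 19 called, the most without wild-type 9082857 (19) and 9083371 (17), and the striatal libraries alone gave 1. In the other regions 0 of 55 were called. Median fold changes over the list were -0.09 in striatum, -0.01 in brainstem, -0.04 in cerebellum and -0.01 in cortex.

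Of the enzymes and transporters of noradrenaline, 6 of 10 were measured and none was called in any region. Th, tyrosine hydroxylase, the first enzyme of the pathway, had a log2 fold change of -0.19 in brainstem (FDR = 0.93) and -0.24 in striatum (FDR = 0.84). Its wild-type brainstem libraries ran from 6.40 over a median of 9.14 to 135 CPM and the SCA3 ones from 6.10 over 13.9 to 92.5 CPM, a wide range in both genotypes. Dbh and Slc6a2, which mark noradrenergic neurons, were not analysed here. Slc18a2, the vesicular monoamine transporter, was at -0.64 in brainstem (FDR = 0.54) and -0.89 in striatum (FDR = 0.23).

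In the Gq arm of the α1 receptors, 2 of 14 measured genes were called lower in SCA3 striatum, beside 5.47% of all genes. They were Prkcd (-3.47 ± 0.50, FDR = 4.2e-06) and Plcb4, a phospholipase C (-1.33 ± 0.31, FDR = 0.0039). Prkcd lay between 16.1 and 23.2 CPM in SCA3 and ran from 15.1 over a median of 102 to 861 CPM in wild-type, and it also belongs to the thalamus marker list. Without the libraries of high thalamus marker level Prkcd was at -2.14 (FDR = 0.00057), and Plcb4 lost its call (-0.58, FDR = 0.23). Prkcd was also the single listed gene with a call for region dependence (FDR = 0.0013).

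In the Gi/o arm of the α2 receptors, 0 of 8 genes were called in striatum (7.54% of all genes), with fold changes from -0.83 to 0.03. Differences between the arms were not tested.

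In the Gs arm of the β receptors, 5 of 16 were called lower in striatum, beside 5.47% of all genes. They were Gnas, the Gs α subunit (-0.69 ± 0.15, FDR = 0.00079), the adenylyl cyclases Adcy6 (-0.59 ± 0.13, FDR = 0.00099), Adcy8 (-1.12 ± 0.24, FDR = 0.00099) and Adcy2 (-0.48 ± 0.16, FDR = 0.046), and Prkaca, the catalytic subunit of protein kinase A (-0.26 ± 0.08, FDR = 0.02). Gnas averaged 574 ± 135 CPM in SCA3 (SD, n = 5) against 924 ± 285 for wild-type (n = 8). The call of Adcy2 was kept without each of 3 of the 14 mice (wild-type 9082857 and 9083371 and SCA3 9083514) and lost without any other (FDR from 0.051 to 0.21), and it was also lost with the quasi-likelihood test (FDR = 0.06), limma-voom (0.052) and the mouse as a random replicate block (0.055). That of Prkaca was kept in 9 of the 14 and lost without wild-type 9083372 or 9083373 or SCA3 7267054, 7267056 or 9083515 (FDR from 0.064 to 0.089). Adcy8 was at -0.60 and not called (FDR = 0.084) without the libraries of high thalamus marker level. The counterparts in striatal projection neurons, Gnal (0.36, FDR = 0.18) and Adcy5 (0.42, FDR = 0.26), were not called.

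Of 11 desensitisation genes, 2 were called lower in striatum, beside 5.47% of all genes. Both were receptor kinases, Grk5 (-0.59 ± 0.15, FDR = 0.0075) and Adrbk2 (-0.48 ± 0.14, FDR = 0.023). The call of Adrbk2 was kept in 7 of the 14 fits that left out a mouse and lost without wild-type 7267059, 9083373 or 9083375 or SCA3 7267054, 7267056, 9082853 or 9083515 (FDR from 0.053 to 0.12), and without the libraries of high thalamus marker level it was at -0.40 (FDR = 0.13). Over the 9 genes called, the direction was negative in the main fit and in all 28 alternatives. The alternatives refit the libraries, or parts of them, in which the 9 were called, so the kept direction is no independent support. Without the libraries of high thalamus marker level 6 of 9 were still called (Prkcd, Adcy6, Gnas, Grk5, Prkaca and Adcy2), whereas in the striatal libraries alone only Prkcd was, both with no covariate and with the thalamus marker score as one. With that score the log2 fold change went from -3.47 to -1.79 for Prkcd, from -1.33 to -0.40 for Plcb4, from -1.12 to -0.46 for Adcy8, from -0.68 to -0.49 for Gnas and from -0.48 to -0.36 for Adrbk2. It moved less for Adcy6 (-0.59 to -0.51), Adcy2 (-0.48 to -0.54), Grk5 (-0.59 to -0.60) and Prkaca (-0.25 with and without). Prkcd is itself in the thalamus list, so its own fit with that score adjusts the gene partly for itself. With the projection neuron score none of the 9 was called, and the fold changes were -0.96 for Prkcd, -0.12 for Plcb4, -0.18 for Adcy8, -0.21 for Gnas, -0.26 for Adcy6, -0.17 for Adrbk2, -0.37 for Adcy2, -0.46 for Grk5 and -0.16 for Prkaca.

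As a description, genes most like each receptor were listed by their wild-type region means and by their deviations from the group mean over the 53 libraries, which share library and tissue composition. By region means, centred on the log2 scale over 4 regions, Adra1a was nearest to Smim18, Ttc3 and Hcn3 (root mean square difference 0.014 to 0.019), Adra1b to Bid, Cdh24 and Slc35f4 (0.084 to 0.13) and Adra1d to Kcnk4, Tshz3 and Necab3 (0.045 to 0.17). Adra2a was nearest to Ccdc184, Ppapdc1a and Kcnj16 (0.13 to 0.15), Adra2c to Hrh3, the histamine H3 receptor, Erf and Actn1 (0.046 to 0.086), and Adrb1 to Tnfrsf25, Ppp1r1a and Chn1 (0.058 to 0.13). By deviations, the leading genes were Fam135b for Adra1a (r = 0.671, n = 53 libraries), Medag for Adra1b (0.914), Sel1l3 for Adra1d (0.896), Gnas for Adra2a (0.779), Tmem158 for Adra2c (0.913) and E130012A19Rik for Adrb1 (0.817). Next in these lists came Dmxl2 and Sema3a, Ccdc136 and Acss2, Cxxc5 and Adcy1, Galnt16 and Cotl1, Gpr27 and Rpl31, and Kifc2 and Abhd8, in the same order of receptors, with r of 0.612 or more.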

How the data were processed

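RNA was measured by sequencing in brainstem, cerebellum, cortex and striatum. The authors deposited whole-number read counts, 1 column per library. Per the labels and the methods of the study, poly-A libraries without strand information were read as paired ends on an Illumina instrument, demultiplexed with bcl2fastq 1.8, checked with FastQC 0.11.2, trimmed with cutadapt 1.10, aligned to GRCm38 with STAR 2.3.0e and counted per RefSeq gene with HTSeq 0.6.1 from uniquely aligned reads. The authors kept genes averaging above 4 CPM, so receptor genes under that level are not analysed here. Counting only unique alignments drops reads that near-identical genes share.

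Counts were tested with edgeR 4.0.16 (R 4.3.3), the package the authors used at version 3.14.0. All 53 libraries entered 1 fit of 8 groups of region and genotype after TMM normalisation. Likelihood ratio tests compared genotypes in each region and wild-type regions with each other, with Benjamini-Hochberg adjustment across the 12372 genes. Intervals are 95% and use the standard error of the fit. Logs of CPM used a prior count of 2. The fit treats the 53 libraries of 14 mice as independent, with the spread of a gene shared over regions, so p-values measure the spread between libraries and not that between mice alone. Groups were taken from the labels.

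The alternatives were RLE size factors, DESeq2 1.42.0, edgeR's quasi-likelihood F test, limma-voom (limma 3.58.1) alone or with a random mouse block, at least 10 counts in every library (12337 genes), the libraries of a region alone, RIN (RNA integrity number) as a covariate or of at least 7 (49 libraries), the leading digits of mouse numbers (number series) as a covariate, the thalamus marker score (mean centred log2 CPM of that list) as a covariate, a fixed mouse block, wild-type libraries alone, and each of the 14 mice left out in turn. Added after seeing the data were leaving out the 5 libraries whose thalamus score lay more than 1 above their region's mean, the projection neuron score as a covariate, the 27 libraries of the largest number series alone, and exon lengths of all transcripts.

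A mouse gave libraries of several regions, so the mouse pairs libraries across regions. Between regions of the same mouse, deviations from group means had a mean correlation of 0.09 to 0.19. Genotype does not vary within a mouse.

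The receptors, the pathway and marker lists and the tests were chosen with earlier results of these data known. All receptors were named. Genes most like each were named by a rule (3 by region means, 3 by deviations), and pathway genes where called in a region, with Th, Dbh and Slc6a2. Slc18a2, Gnal and Adcy5 lie outside this rule and were named after their values were seen.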

Additional observations from a re-analysis of the deposited data

How the results depend on the processing

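Of 1746 values of single receptors under the alternatives, 1675 kept their side of the threshold and, where called, their direction. Calls were lost in 50 and gained in 18, and 3 changed sign, all for Adra1b in striatum: 0.14 with the thalamus score, 0.22 with the projection neuron score and 0.09 in the largest number series alone. A further 85 uncalled values changed sign, none above 0.34 in size. The count of receptors called in striatum, 2, fell to 1 with the quasi-likelihood test, RIN or number series as a covariate and without libraries of high thalamus score. It fell to 0 with limma-voom with or without the replicate block, the region alone, RIN of at least 7, either marker score as a covariate and the largest number series alone. In brainstem it rose from 0 to 1 with either marker score. The combined count fell from 1 to 0 with the quasi-likelihood test and limma-voom with or without the block. Pathway genes called in striatum, 9, fell to 1 in the region alone and with the thalamus score, 2 with RIN of at least 7, and 0 with the projection neuron score or the largest number series alone. In brainstem they rose from 0 to 1 with either marker score, and in cerebellum from 0 to 1 with the projection neuron score. Leaving out each mouse gave 1 to 2 receptors in striatum, 0 in each other region, 0 to 1 in the combined test and for region dependence, 20 to 24 region pair calls (22 in the fit as reported) and 6 to 19 pathway genes in striatum. The causes were not tested.

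For Adra1b in striatum the call was kept in 10 of 28 alternatives (FDR 0.012 to 1) and for Adra2a in 21 of 28 (8.8e-05 to 1). Counts were 30 or more in every library, with 5 to 8 mice a group. The standard errors rest on a spread that the fit shares over regions. That of the genotype difference in Adra1b was 0.4 in cerebellum and 0.41 in striatum. The SD of its wild-type libraries was 21.1% and 112% of their mean. Whether depth or the spread between libraries limits the precision more was not tested.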
